A study of Mus musculus with 20 samples.

Results

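The genes described here are 38 genes of ribosome biogenesis and RNA polymerase I, chosen by name for their part in making ribosomal RNA and the ribosomal subunits. A gene was measured where the platform annotation gave a probe set its symbol and no other, and the probe set with the brightest average signal was taken where several qualified. This gave values for 36 of the 38 genes, out of 22180 genes with such a probe set. All 36 passed the filter on dim genes, which left 16638 genes for testing. Fbl, which encodes the ribose methyltransferase of box C/D small nucleolar ribonucleoproteins (snoRNPs), and Tsr1, which encodes a late assembly factor of the small subunit, share their probe sets with other genes in that annotation and have no value here.

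Ribosomes are built mainly in the nucleolus. RNA polymerase I transcribes a long ribosomal RNA precursor, small nucleolar RNAs (snoRNAs) held in protein complexes guide its methylation and pseudouridylation, and large sets of assembly factors fold and cleave it into the small (40S) and large (60S) subunits. The kinase complex mTORC1, whose scaffold protein is Raptor, is known to promote ribosomal RNA synthesis, and the transcription factor Myc is known to bind the promoters of many ribosome biogenesis genes.

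RNA was measured on 20 single-channel gene arrays from bone marrow cells of female mice on a C57BL/6 background. The mutant mice, labelled CreER-Raptor, were CreER-Rptor-flox/flox, with loxP-flanked alleles of Rptor, the gene for Raptor, and the others were wild type (WT). Lineage-negative marrow cells (Lin-), the immature fraction without surface markers of mature blood cells, were kept in culture for 12 h with 10 ng/ml of macrophage colony-stimulating factor (M-CSF), and gave 4 CreER-Raptor and 4 WT arrays. Granulocyte-macrophage progenitors (GMPs) and common myeloid progenitors (CMPs), which can also form erythroid cells and platelets, were sorted and not cultured, and gave 3 CreER-Raptor and 3 WT arrays each. The labels do not say whether or when Cre was induced, which promoter drives CreER, whether the WT mice carried Cre, or whether replicate arrays came from separate mice. The Lin- cells differ from the CMPs and GMPs by gate, by culture and by M-CSF at once, and these cannot be told apart.

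Values are log2 signals as deposited. Differences are between group means on that scale, with the standard error (SE) of a limma fit over all 20 arrays, and a gene was called where the p-value adjusted over the 16638 genes was under 0.05. The Rptor probe set was at 8.34 ± 0.13 in CreER-Raptor CMPs and 8.64 ± 0.11 in WT CMPs (SD, n = 3 each), at 9.11 ± 0.23 in CreER-Raptor GMPs and 9.28 ± 0.14 in WT GMPs (SD, n = 3 each), and at 6.95 ± 0.09 in CreER-Raptor Lin- + M-CSF cells and 7.13 ± 0.17 in WT Lin- + M-CSF cells (SD, n = 4 each). It passed the limma test in none of the 3 populations (adjusted p = 0.163, 0.465 and 0.305). Where its probes lie relative to the floxed exons is not stated in the labels, so this is not a check of deletion. Kit, the stem cell factor receptor that marks immature progenitors, had group means of 10.73 to 11.14 in the CMPs and GMPs, and Mpo, the myeloperoxidase of granulocyte precursors, had group means of 12.32 to 12.85 there. In bulk RNA, fewer cells of a type and less RNA per cell cannot be told apart.

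Promoter sequences are shown for some of the genes described below. Of these, 3 were called between genotypes (Polr1b, Nob1 and Ltv1) and 3 differed between populations (Pes1, Nop2 and Wdr43). Windows of 300 bases, from 250 before to 50 after the annotated start, were available from RefSeq (GRCm38.p6) for 32 of the 36 genes, and Npm1, Rrp12, Rrs1 and Bop1 have no entry. Capitals mark the E-box CACGTG, the sequence that Myc with its partner Max is known to bind, and CCGGAAG or its reverse complement CTTCCGG, a sequence of the ETS type. The windows, each read in the direction of its gene, are Polr1b at chr2:129100746-129101045 (plus strand), Nob1 at chr8:107424989-107425288 (minus strand), Ltv1 at chr10:13193088-13193387 (minus strand), Pes1 at chr11:3963725-3964024 (plus strand), Nop2 at chr6:125131633-125131932 (plus strand) and Wdr43 at chr17:71615965-71616264 (plus strand).
Polr1b: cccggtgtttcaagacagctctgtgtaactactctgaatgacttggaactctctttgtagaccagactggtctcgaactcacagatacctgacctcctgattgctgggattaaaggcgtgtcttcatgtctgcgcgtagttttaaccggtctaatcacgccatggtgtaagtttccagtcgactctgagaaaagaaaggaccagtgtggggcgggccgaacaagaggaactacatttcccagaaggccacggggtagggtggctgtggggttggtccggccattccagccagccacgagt
Nob1: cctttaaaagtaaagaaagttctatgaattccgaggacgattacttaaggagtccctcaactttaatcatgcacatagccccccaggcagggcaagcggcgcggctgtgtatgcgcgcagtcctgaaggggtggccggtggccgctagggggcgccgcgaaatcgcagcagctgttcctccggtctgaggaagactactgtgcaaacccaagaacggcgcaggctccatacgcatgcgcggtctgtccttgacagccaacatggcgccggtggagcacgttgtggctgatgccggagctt
Ltv1: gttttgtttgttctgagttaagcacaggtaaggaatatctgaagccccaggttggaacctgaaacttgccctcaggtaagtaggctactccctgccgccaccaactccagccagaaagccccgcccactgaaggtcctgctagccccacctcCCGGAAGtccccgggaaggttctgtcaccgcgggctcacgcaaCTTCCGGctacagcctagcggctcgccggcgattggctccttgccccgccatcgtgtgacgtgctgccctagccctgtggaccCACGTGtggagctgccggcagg
Pes1: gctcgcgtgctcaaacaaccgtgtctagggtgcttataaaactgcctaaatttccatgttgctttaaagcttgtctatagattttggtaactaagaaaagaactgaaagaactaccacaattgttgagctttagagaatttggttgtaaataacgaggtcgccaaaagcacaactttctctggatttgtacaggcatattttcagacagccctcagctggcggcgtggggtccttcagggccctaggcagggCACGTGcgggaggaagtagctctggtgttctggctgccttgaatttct
Nop2: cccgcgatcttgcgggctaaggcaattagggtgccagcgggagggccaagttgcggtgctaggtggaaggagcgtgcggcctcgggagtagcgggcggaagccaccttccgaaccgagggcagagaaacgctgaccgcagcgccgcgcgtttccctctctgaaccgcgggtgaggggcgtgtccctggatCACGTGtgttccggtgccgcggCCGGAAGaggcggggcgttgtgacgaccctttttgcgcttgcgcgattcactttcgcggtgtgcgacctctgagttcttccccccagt
Wdr43: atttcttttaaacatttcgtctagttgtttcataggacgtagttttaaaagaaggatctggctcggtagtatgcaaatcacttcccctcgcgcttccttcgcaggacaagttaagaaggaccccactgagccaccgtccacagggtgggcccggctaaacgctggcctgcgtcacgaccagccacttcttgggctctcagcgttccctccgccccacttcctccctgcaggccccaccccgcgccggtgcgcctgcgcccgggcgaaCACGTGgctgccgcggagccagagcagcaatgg

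Of these 6 windows, those of Ltv1, Pes1, Nop2 and Wdr43 hold an E-box. With base 1 at the annotated start, its first base lies at position 29 in Ltv1, 3 in Pes1, -60 in Nop2 and 18 in Wdr43. Ltv1 also holds 2 ETS sequences and Nop2 holds 1, while the windows of Polr1b and Nob1 hold neither motif. Nop14, Rrp9, Rrp1b and Bysl, also called between genotypes but not shown, hold neither motif, and Noc2l holds the ETS sequence alone. Wdr12, which differed between populations and is not shown, holds neither. An E-box was found in 7 of the 32 genes (21.9%), the others being Mybbp1a, Utp20 and Grwd1, against 1559 of 17492 protein-coding genes (8.91%). The ETS sequence, searched on both strands, was found in 9 of the 32 genes (28.1%), which are Gar1, Nhp2, Nolc1, Heatr1, Ltv1, Nop2, Noc2l, Noc3l and Grwd1, against 2265 of the protein-coding genes (12.9%). The E-box reads the same on both strands and shares no overlap with the ETS sequence. A match describes the letters and is not a site of binding.

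Across the 6 groups the genes shared a broad order. The highest group mean was in CreER-Raptor CMPs for 23 of the 36 genes, in CreER-Raptor GMPs for 8, in WT GMPs for 3 and in CreER-Raptor Lin- + M-CSF cells for 2. The lowest group mean was in CreER-Raptor Lin- + M-CSF cells for 17 genes, in WT Lin- + M-CSF cells for 15 and in WT GMPs for 4. The mean log2 signal over all 36 genes was 8.49 ± 0.05 in CreER-Raptor and 8.46 ± 0.17 in WT Lin- + M-CSF cells (SD, n = 4 each). It was 9.29 ± 0.08 in CreER-Raptor and 9.16 ± 0.04 in WT GMPs, and 9.48 ± 0.09 in CreER-Raptor and 9.27 ± 0.05 in WT CMPs (SD, n = 3 each). On WT Lin- + M-CSF replicates 1 to 4 this mean was 8.66, 8.35, 8.54 and 8.28. Replicate 2 was the lowest WT Lin- + M-CSF array for 13 of the 36 genes and replicate 4 for 19. These arrays were lowest for 18.4% and 27.3% of all genes tested. The range between group means was widest for Polr1b (2.75) and Bop1 (2.75) and narrowest for Heatr1 (0.43) and Wdr75 (0.44).

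**Figure D1:**
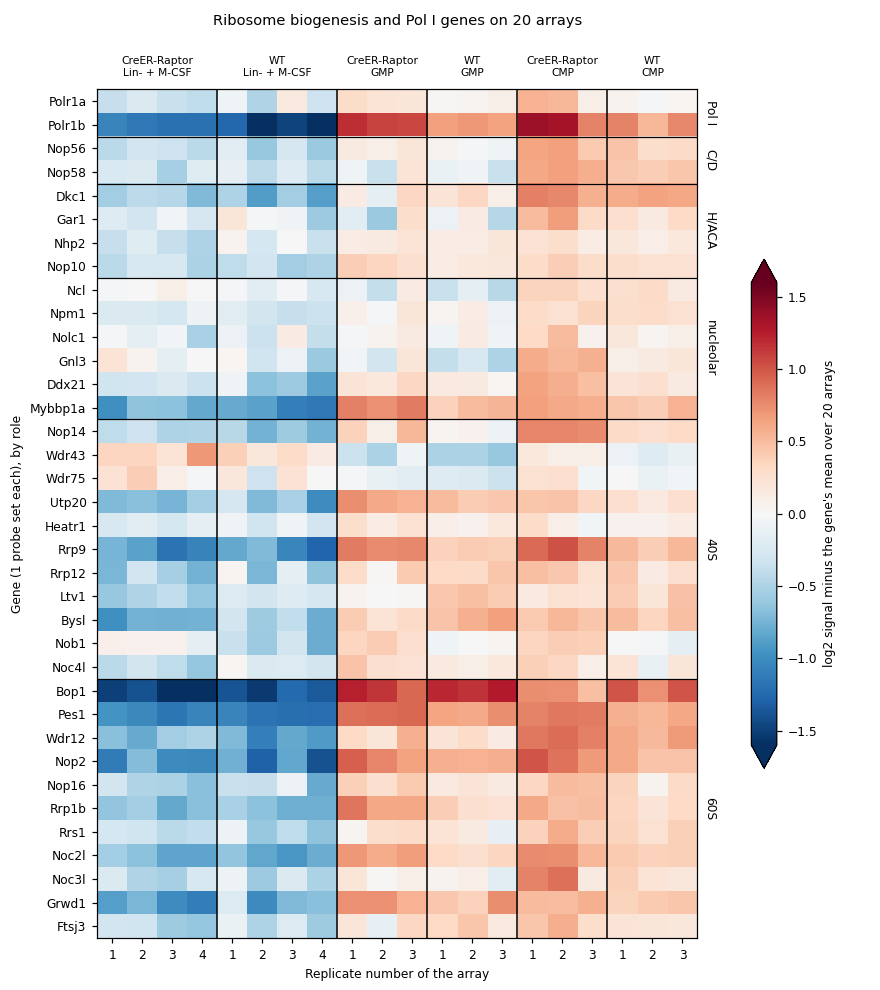
Log2 signal of each of the 36 genes (rows, grouped by role) on each of the 20 arrays (columns, grouped by population and genotype), minus the gene's own mean over all arrays. Most rows are low in the 8 Lin- + M-CSF arrays and high in the CMP and GMP arrays, while Wdr43 and Wdr75 have their highest group mean in CreER-Raptor Lin- + M-CSF cells.

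The comparison of genotypes asked how expression in CreER-Raptor cells differed from that in WT cells of the same population. In CMPs, 4 of the 36 genes rose in CreER-Raptor cells (11.1%) and 0 fell, where 6.01% of all genes tested rose and 5.44% fell. The 4 were Nop14, Nob1 and Rrp9 of small subunit assembly and Polr1b of RNA polymerase I. The median difference was 0.20 over the 36 genes and -0.01 over all genes tested, and 34 of the 36 differences were above 0. For 18 of the genes the CreER-Raptor arrays all lay above the WT arrays and for 0 all below, where 15.9% and 14.9% of all genes did. The count of calls was 1 without CreER-Raptor replicate 2 or WT replicate 3, 2 without CreER-Raptor replicate 1, WT replicate 1 or WT replicate 2, and 7 without CreER-Raptor replicate 3, which was the lowest CreER-Raptor CMP array for 24 of the 36 genes (38.3% of all genes tested). WT replicate 2 was likewise the lowest WT CMP array for 24 of the 36 genes (44.5% of all genes tested).

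In GMPs, 3 genes rose in CreER-Raptor cells (8.33%), Rrp1b and Noc2l of large subunit assembly and Rrp9, and 1 fell, Ltv1 of small subunit assembly. Among all genes tested, 4.37% rose and 7.53% fell. The median difference was 0.16 over the 36 genes and 0.02 over all genes. The CreER-Raptor arrays lay wholly above the WT arrays for 17 genes and wholly below for 2, against 16.2% of all genes in each direction. The split depended on the scaling of the arrays: 8 genes rose and 1 fell after cyclic loess, 7 rose and 1 fell after repeated quantile normalization, and 1 rose and 1 fell after centring arrays on their medians. Leaving out a single array gave 1 to 3 called genes, with 1 without CreER-Raptor replicate 1, WT replicate 2 or WT replicate 3, and 2 without CreER-Raptor replicate 3 or WT replicate 1.

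In Lin- + M-CSF cells, 2 genes rose in CreER-Raptor cells, Nob1 and Polr1b, and 2 fell, Ltv1 and Bysl, all but Polr1b of small subunit assembly. These are 5.56% in each direction, beside 6.82% of all genes tested that rose and 5.73% that fell, so the shares are near the background. The median difference was 0.03 over the 36 genes and 0.01 over all genes. The arrays lay apart upward for 2 genes and downward for 2, where 7.45% and 6.45% of all genes did. With arrays centred on their medians 2 rose and 0 fell. The count was 1 without CreER-Raptor replicate 1, and 2 without CreER-Raptor replicate 2, CreER-Raptor replicate 4 or WT replicate 3.

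Over the 3 populations 28 of the 36 genes were called in no genotype comparison, 4 in 1, 4 in 2 and 0 in all 3, and 0 were called in opposite directions. Tests of the difference between genotype effects called 0 of the 36 genes between GMPs and CMPs, between Lin- + M-CSF cells and CMPs, and between Lin- + M-CSF cells and GMPs, where 2.50%, 7.77% and 4.77% of all genes were called by limma. At an unadjusted p under 0.05 these tests counted 1, 4 and 4 of the 36. The share of all genes at that threshold is not given here, so these counts are not set against a background. In the same order, the medians over the 36 genes were -0.05, -0.19 and -0.10, beside 0.01 each over all genes tested. Of the 36 differences, 25, 29 and 28 were below 0. A gene called in a single population is not thereby shown to differ between populations. Polr1a had a genotype difference of -0.54 in Lin- + M-CSF cells relative to that in CMPs (SE 0.18, adjusted p = 0.0799). It was called without CreER-Raptor CMP replicate 3 (adjusted p = 0.0163) and without WT Lin- + M-CSF replicate 2 (adjusted p = 0.0234).

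**Figure D2:**
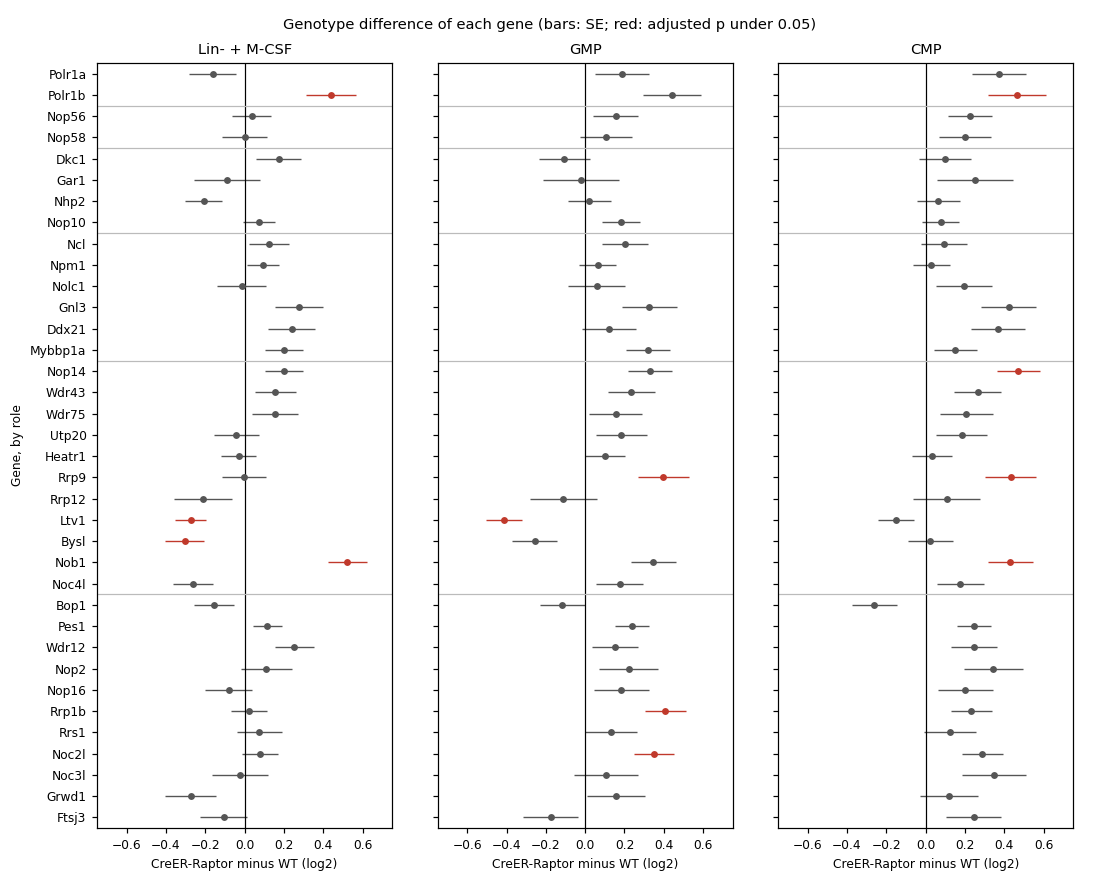
Difference between CreER-Raptor and WT arrays of the same population for each gene, in log2 units (points, with the SE as bars), in 3 panels for the 3 populations. Red marks an adjusted p under 0.05. In CMPs 34 of 36 points lie right of 0, while in Lin- + M-CSF cells the points lie on both sides, from -0.30 for Bysl to 0.52 for Nob1.

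Among the genes of RNA polymerase I, Polr1b, which encodes the second largest subunit, had a higher mean in CreER-Raptor cells of every population and was called in CMPs and Lin- + M-CSF cells. Its log2 signal was 9.42, 9.37 and 8.84 in CreER-Raptor CMPs, against 8.85, 8.58 and 8.82 in WT CMPs. A single CreER-Raptor array lay within the WT range. The rise was 0.46 (SE 0.15, 1.38-fold, adjusted p = 0.0444), and it was no longer called without CreER-Raptor CMP replicate 1 or 2 or WT CMP replicate 1, 2 or 3 (adjusted p from 0.0654 to 0.212). It also missed the threshold with no filter on dim genes (adjusted p = 0.0546) and with a fit of that population alone (adjusted p = 0.0910). In GMPs Polr1b was at 9.22, 9.13 and 9.12 in CreER-Raptor arrays, against 8.71, 8.75 and 8.69 in WT arrays. The groups were apart, and the difference of 0.44 (SE 0.15) was the largest of the 36 genes in GMPs but missed the threshold (adjusted p = 0.0539), with adjusted p from 0.000563 to 0.162 over 16 alternatives, of which 7 called it. In Lin- + M-CSF cells it was at 7.00, 6.91, 6.86 and 6.85 in CreER-Raptor arrays, against 6.79, 6.24, 6.57 and 6.25 in WT arrays. All CreER-Raptor arrays were above all WT arrays, by 0.44 on average (SE 0.13, 1.36-fold, adjusted p = 0.0264). That call was absent without CreER-Raptor replicate 1 or 2 or WT replicate 2 or 4 (adjusted p from 0.0527 to 0.0844). It also missed the threshold with a fit of that population alone (adjusted p = 0.0837).

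Polr1a encodes the largest subunit of the same enzyme. It was at 9.16, 9.14 and 8.70 in CreER-Raptor CMPs, against 8.66, 8.58 and 8.64 in WT CMPs. The groups were apart but CreER-Raptor replicate 3 lay near the WT arrays. The difference of 0.37 (SE 0.14, adjusted p = 0.0910) was called without that replicate, where it was 0.52 (adjusted p = 0.0157), and with array weights (adjusted p = 0.00676). In GMPs Polr1a was at 8.91, 8.83 and 8.81 in CreER-Raptor arrays, against 8.63, 8.65 and 8.70 in WT arrays, apart by 0.19 (SE 0.14, adjusted p = 0.461). It was called there with array weights (adjusted p = 0.0432). In Lin- + M-CSF cells it was at 8.24, 8.38, 8.25 and 8.20 in CreER-Raptor arrays, against 8.54, 8.13, 8.77 and 8.28 in WT arrays. The WT arrays spread wider than the CreER-Raptor arrays and enclosed them, and the difference was -0.16 (SE 0.12, adjusted p = 0.424).

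The snoRNP protein genes and the nucleolar genes held no call between genotypes. Of the box C/D proteins, which carry the methylation guides, Nop56 and Nop58 had differences of 0.23 and 0.20 in CMPs and of 0.16 and 0.10 in GMPs. The 4 box H/ACA genes are Dkc1, the pseudouridine synthase dyskerin, and its partners Gar1, Nhp2 and Nop10. Their differences ran from 0.06 to 0.25 in CMPs, from -0.11 to 0.18 in GMPs and from -0.21 to 0.17 in Lin- + M-CSF cells. The 6 nucleolar genes encode nucleolin (Ncl), nucleophosmin (Npm1), the snoRNP chaperone Nopp140 (Nolc1), nucleostemin (Gnl3), the helicase Ddx21 and the Myb-binding protein Mybbp1a. All 6 had differences above 0 in CMPs (0.03 to 0.42) and GMPs (0.06 to 0.33), and 5 of 6 in Lin- + M-CSF cells (-0.02 to 0.28). Gnl3 had the smallest adjusted p of these in CMPs. It was at 10.40, 10.34 and 10.38 in CreER-Raptor CMPs, against 9.91, 9.95 and 10.00 in WT CMPs. The groups were well apart, with a difference of 0.42 (SE 0.14, adjusted p = 0.0586).

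Among the 11 measured genes of small subunit assembly, Nop14, a core protein of the small subunit processome, had the smallest adjusted p in CMPs. It was at 9.81, 9.82 and 9.79 in CreER-Raptor CMPs, against 9.34, 9.31 and 9.36 in WT CMPs. The arrays of each genotype lay within a narrow band and the bands were far apart, and the rise of 0.47 (SE 0.11, 1.39-fold, adjusted p = 0.00589) was called under all 16 alternatives. In GMPs Nop14 was at 9.40, 9.13 and 9.57 in CreER-Raptor arrays, against 9.07, 9.10 and 8.95 in WT arrays (difference 0.33, SE 0.11, adjusted p = 0.0567). In Lin- + M-CSF cells the difference was 0.20 (SE 0.10, adjusted p = 0.193) with overlapping arrays.

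Nob1, the endonuclease that makes the final cleavage of small subunit ribosomal RNA, had higher means in CreER-Raptor cells of all 3 populations and was called in 2. Its log2 signal was 8.58, 8.57, 8.57 and 8.35 in CreER-Raptor Lin- + M-CSF cells, against 8.15, 7.92, 8.21 and 7.71 in WT Lin- + M-CSF cells. Every CreER-Raptor array was above every WT array, and the rise of 0.52 (SE 0.10, 1.44-fold, adjusted p = 0.00119) was called under all 18 alternatives. In CMPs Nob1 was at 8.84, 8.90 and 8.88 in CreER-Raptor arrays, against 8.50, 8.46 and 8.36 in WT arrays. The arrays were again apart, by 0.43 (SE 0.11, 1.35-fold, adjusted p = 0.0153), but it missed the threshold without CreER-Raptor replicate 2 or WT replicate 3 (adjusted p = 0.0600 and 0.0755). In GMPs it was at 8.85, 8.91 and 8.77 in CreER-Raptor arrays, against 8.43, 8.51 and 8.55 in WT arrays. That difference of 0.35 (SE 0.11) just missed the threshold (adjusted p = 0.0525).

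Ltv1, which helps shape and release the small subunit before its export, went the other way. It was at 9.31, 9.26 and 9.27 in CreER-Raptor GMPs, against 9.69, 9.74 and 9.66 in WT GMPs. The CreER-Raptor arrays were all below the WT arrays, and the change of -0.41 (SE 0.09, 1.33-fold lower, adjusted p = 0.00431) was called under all 16 alternatives. In Lin- + M-CSF cells Ltv1 was at 8.65, 8.78, 8.86 and 8.63 in CreER-Raptor arrays, against 9.04, 8.96, 9.05 and 8.98 in WT arrays. The groups were apart there too, by -0.27 (SE 0.08, 1.21-fold lower, adjusted p = 0.0277). This was not called without CreER-Raptor replicate 1 or 4 or WT replicate 1 or 3 (adjusted p from 0.0565 to 0.0787). It also missed the threshold with array weights (adjusted p = 0.0808), with arrays centred on their medians (adjusted p = 0.0530) and with a fit of that population alone (adjusted p = 0.134). In CMPs Ltv1 was at 9.41, 9.50 and 9.47 in CreER-Raptor arrays, against 9.66, 9.45 and 9.72 in WT arrays, with 1 WT array among the CreER-Raptor arrays and a difference of -0.15 (SE 0.09, adjusted p = 0.390).

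Bysl, which encodes the small subunit assembly factor bystin, was at 6.78, 7.01, 6.99 and 7.01 in CreER-Raptor Lin- + M-CSF cells, against 7.47, 7.20, 7.37 and 6.97 in WT Lin- + M-CSF cells. A single WT array lay among the CreER-Raptor arrays. The change of -0.30 (SE 0.10, adjusted p = 0.0498) was called under 6 of 18 alternatives, and not without CreER-Raptor replicate 1, 2, 3 or 4 or WT replicate 1, 2 or 3 (adjusted p from 0.0610 to 0.154). Bysl had differences of 0.02 in CMPs and -0.26 in GMPs (adjusted p = 0.953 and 0.177).

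Rrp9, a protein of the U3 snoRNP, was at 8.74, 8.85 and 8.63 in CreER-Raptor CMPs, against 8.34, 8.22 and 8.35 in WT CMPs. It was at 8.66, 8.58 and 8.60 in CreER-Raptor GMPs, against 8.19, 8.24 and 8.21 in WT GMPs. The arrays were apart in both populations, by 0.43 (SE 0.13, 1.35-fold, adjusted p = 0.0316) in CMPs and by 0.40 (SE 0.13, 1.32-fold, adjusted p = 0.0491) in GMPs, and they overlapped in Lin- + M-CSF cells (adjusted p = 0.996). In CMPs it was not called without CreER-Raptor replicate 1 or 2 or WT replicate 1, 2 or 3 (adjusted p from 0.0664 to 0.148). In GMPs it was not called without any single one of its 6 arrays (adjusted p from 0.0820 to 0.143). It also missed the threshold with no filter on dim genes (adjusted p = 0.0605) and with arrays centred on their medians (adjusted p = 0.0997). The remaining 6 genes of this role, Wdr43, Wdr75, Utp20, Heatr1, Rrp12 and Noc4l, were not called, with differences from 0.03 to 0.26 in CMPs, from -0.11 to 0.24 in GMPs and from -0.26 to 0.16 in Lin- + M-CSF cells.

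Of the 11 genes of large subunit assembly, 2 were called, both in GMPs. Rrp1b, a nucleolar protein that acts on large subunit precursors, was at 8.77, 8.53 and 8.53 in CreER-Raptor GMPs, against 8.30, 8.16 and 8.14 in WT GMPs. The groups were apart and the rise was 0.41 (SE 0.10, 1.32-fold, adjusted p = 0.0127), a call not made without CreER-Raptor replicate 1 or WT replicate 2 or 3 (adjusted p = 0.0896, 0.0583 and 0.0519). Noc2l, whose yeast counterpart Noc2 escorts large subunit precursors out of the nucleolus, was at 10.43, 10.33 and 10.40 in CreER-Raptor GMPs, against 10.05, 9.99 and 10.07 in WT GMPs. It was apart as well, by 0.35 (SE 0.10, 1.27-fold, adjusted p = 0.0295), and was not called without any single one of its 6 arrays (adjusted p from 0.0535 to 0.114). It also missed the threshold with arrays centred on their medians (adjusted p = 0.0644). Bop1, Pes1 and Wdr12 encode the PeBoW complex, which is needed to process large subunit ribosomal RNA. In CMPs Bop1 had a difference of -0.26 (SE 0.12, adjusted p = 0.184), while Pes1 had 0.25 and Wdr12 0.25 (adjusted p = 0.0732 and 0.219).

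**Figure D3:**
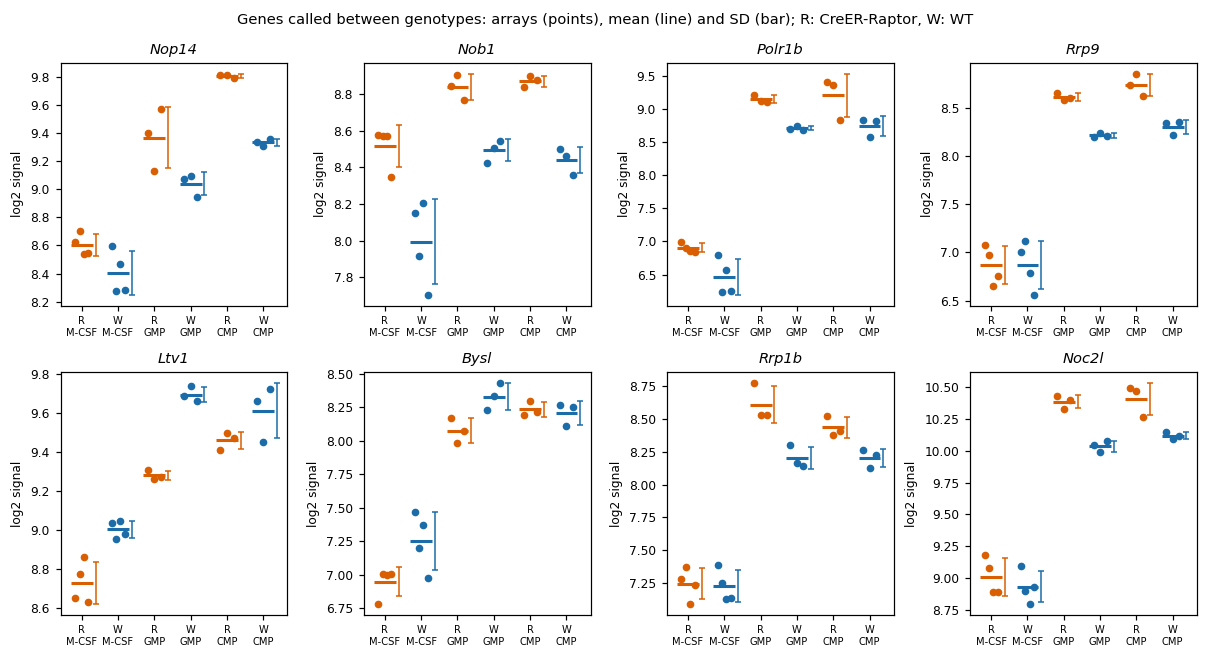
Log2 signal of the 8 genes called between genotypes in any population, on each array (points), with the group mean (horizontal line) and SD (bar) for Lin- + M-CSF cells, GMPs and CMPs, each with CreER-Raptor left of WT. Nob1 and Polr1b have a higher CreER-Raptor mean in all 3 populations and Ltv1 a lower one, and the scale of each panel covers its own gene.

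Other genes of ribosome assembly, 118 listed and 109 tested, were set beside these. In CreER-Raptor CMPs 13 of them rose (11.9%, where 6.01% of all genes did) and 0 fell. In CreER-Raptor GMPs 6 rose (5.50%, near the 4.37% of all genes) and 0 fell. In CreER-Raptor Lin- + M-CSF cells 4 rose and 2 fell (3.67% and 1.83%, under the 6.82% and 5.73% of all genes). The medians were 0.14, 0.09 and 0.03. Taf1c, a subunit of the factor that loads RNA polymerase I on its promoter, rose by 0.76 in CMPs (SE 0.12, adjusted p = 0.000179) and by 0.49 in GMPs (SE 0.12, adjusted p = 0.0113). Pwp2, a small subunit processome protein, rose by 0.64 in CMPs (SE 0.13, adjusted p = 0.00128). Polr1c, a subunit that RNA polymerases I and III share, rose by 0.43 in GMPs (SE 0.12, adjusted p = 0.0174) and by 0.45 in Lin- + M-CSF cells (SE 0.10, adjusted p = 0.00501). The 2 that fell in Lin- + M-CSF cells were Pelp1, of a complex that processes large subunit RNA (-0.35, adjusted p = 0.0382), and Pno1, of small subunit assembly (-0.42, adjusted p = 0.0458).

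Myc itself was at 10.27, 9.98 and 10.58 in CreER-Raptor CMPs, against 10.20, 10.08 and 10.29 in WT CMPs, overlapping, with a difference of 0.09 (adjusted p = 0.836). It was at 10.43, 10.26 and 10.50 in CreER-Raptor GMPs, against 9.91, 9.80 and 10.03 in WT GMPs, and rose by 0.49 (SE 0.14, adjusted p = 0.0309). It was at 9.85, 10.00, 9.89 and 9.96 in CreER-Raptor Lin- + M-CSF cells, against 9.62, 9.30, 9.34 and 8.99 in WT Lin- + M-CSF cells, and rose by 0.61 (SE 0.13, adjusted p = 0.00229). The genotype effects on Myc were not shown to differ between populations (adjusted p = 0.429 for GMPs against CMPs, 0.108 for Lin- + M-CSF cells against CMPs and 0.798 for Lin- + M-CSF cells against GMPs).

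Cell type and cell cycle markers moved with genotype too. Of all genes tested, 6.01% rose and 5.44% fell in CreER-Raptor CMPs. The shares were 4.37% and 7.53% in GMPs, and 6.82% and 5.73% in Lin- + M-CSF cells. Of 10 tested erythroid genes, 8 rose in CreER-Raptor CMPs, 5 in GMPs and 8 in Lin- + M-CSF cells. The mean over that list was 9.13 to 9.82 on CreER-Raptor CMP arrays against 8.08 to 8.32 on WT CMP arrays, 6.15 to 7.11 on CreER-Raptor GMP arrays against 5.39 to 5.66 on WT GMP arrays, and 6.36 to 7.13 on CreER-Raptor Lin- + M-CSF arrays against 5.53 to 5.91 on WT Lin- + M-CSF arrays. Of 7 monocyte genes, 5 fell in CreER-Raptor CMPs, 5 in GMPs and 6 in Lin- + M-CSF cells, with list means of 7.89 to 8.10 on CreER-Raptor CMP arrays and 9.08 to 9.17 on WT CMP arrays. Of 7 mature neutrophil genes, 5 fell in CreER-Raptor CMPs, 4 fell and 1 rose in GMPs, and 1 fell in Lin- + M-CSF cells. Their mean was 7.80 to 8.00 on CreER-Raptor CMP arrays against 9.55 to 9.85 on WT CMP arrays, and 8.28 to 8.36 on CreER-Raptor GMP arrays against 9.34 to 9.95 on WT GMP arrays, and neither pair overlapped. Of 7 granulocyte progenitor genes, 5 fell in CreER-Raptor CMPs, with list means of 10.26 to 10.38 on CreER-Raptor CMP arrays and 10.96 to 11.24 on WT CMP arrays. The arrays overlapped in the other populations. There the group means of this list were 11.423 in CreER-Raptor and 11.435 in WT GMPs, and 11.17 in CreER-Raptor and 10.95 in WT Lin- + M-CSF cells. Of 19 genes of G2 and mitosis, 1 fell in CreER-Raptor CMPs, 14 in GMPs and 7 in Lin- + M-CSF cells. The mean over genes of S phase was 9.01 to 9.14 on CreER-Raptor and 9.31 to 9.36 on WT GMP arrays. In Lin- + M-CSF cells it was 7.97 to 8.13 and 8.19 to 8.28. The mean over stem and multipotent progenitor genes was 7.09 to 7.29 on CreER-Raptor and 6.62 to 6.81 on WT Lin- + M-CSF arrays. That over megakaryocyte genes was 6.53 to 6.84 and 5.95 to 6.36 there. In CMPs the arrays overlapped for each of these lists. In GMPs the stem and multipotent progenitor list was apart too, at 6.91 to 6.99 on CreER-Raptor and 6.77 to 6.87 on WT arrays. Means over eosinophil and mast cell genes were 7.57 to 7.85 on CreER-Raptor and 7.99 to 8.37 on WT CMP arrays. In GMPs they were 8.38 to 8.64 and 8.79 to 9.09, and they overlapped in Lin- + M-CSF cells. Lymphocyte genes were apart in GMPs (group means 4.27 in CreER-Raptor, 4.19 in WT) and Lin- + M-CSF cells (6.695 and 6.253). The part of these shifts in the differences of the ribosome biogenesis genes was not tested.

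The comparison of WT populations asked how the cultured cells differed from the freshly sorted progenitors. In WT Lin- + M-CSF cells 31 of the 36 genes were lower than in WT CMPs (86.1%) and 1, Wdr43, was higher, where 36.0% of all genes were lower and 19.6% higher. Against WT GMPs 27 were lower and 1, again Wdr43, was higher, beside 36.1% of all genes lower and 20.3% higher. Both counts take Ddx21 as lower, whose probe sets went opposite ways. With the mean of each gene's probe sets, Ddx21 was higher, and the counts were 30 lower and 2 higher against WT CMPs and 25 lower and 2 higher against WT GMPs. The cultured arrays lay wholly below the fresh ones for 30 genes against CMPs and 26 against GMPs (35.5% and 35.6% of all genes), and wholly above for 1 in each (19.6% and 20.2% of all genes). The median difference of the 36 genes was -0.71 against WT CMPs and -0.61 against WT GMPs, where the medians of all genes were -0.14 and -0.14. The 36 genes are bright, with mean signals at the 74.9th to 99.8th percentile of all genes measured. With genes under the 50th percentile of signal left out, the medians of all genes tested were -0.195 and -0.197. Cyclic loess, which brought the median of all genes to -0.00 and -0.02, gave medians of -0.43 and -0.34 for the 36 genes, with 24 lower and 2 higher against WT CMPs and 20 lower and 4 higher against WT GMPs. The genes no longer called lower after cyclic loess were Nhp2, Ncl, Gnl3, Heatr1, Nob1, Noc4l and Ftsj3 against WT CMPs, and Nop56, Nhp2, Npm1, Heatr1, Nob1, Noc4l and Rrs1 against WT GMPs. Both comparisons use the same WT Lin- + M-CSF arrays.

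The largest falls were those of Bop1 and Polr1b. Bop1 was at 7.34, 7.18, 7.48 and 7.37 in WT Lin- + M-CSF cells, against 9.93, 9.88 and 9.99 in WT GMPs and 9.73, 9.45 and 9.73 in WT CMPs. The cultured arrays lay far below both fresh populations, by -2.59 (6.03-fold lower) against GMPs and -2.29 (4.90-fold lower) against CMPs (SE 0.11 each, adjusted p = 5.01e-14 and 3.58e-13). Polr1b was at 6.79, 6.24, 6.57 and 6.25 in WT Lin- + M-CSF cells, against 8.71, 8.75 and 8.69 in WT GMPs and 8.85, 8.58 and 8.82 in WT CMPs. It too was separated by a wide gap, of -2.25 (4.76-fold lower) against GMPs and -2.28 (4.87-fold lower) against CMPs (SE 0.14 each, adjusted p = 1.53e-11 and 1.50e-11). Its partner Polr1a was at 8.54, 8.13, 8.77 and 8.28 in WT Lin- + M-CSF cells, with differences of -0.23 against GMPs and -0.20 against CMPs (SE 0.13 each, adjusted p = 0.135 and 0.200). Both Polr1a comparisons were called without WT Lin- + M-CSF replicate 3 (adjusted p = 0.0196 and 0.0336).

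All 11 large subunit genes were lower in WT Lin- + M-CSF cells than in WT CMPs, and 10 of 11 were lower than in WT GMPs, the exception being Noc3l (-0.35, SE 0.15, adjusted p = 0.0564). Pes1 was at 8.92, 8.81, 8.78 and 8.76 in WT Lin- + M-CSF cells, against 10.62, 10.59 and 10.73 in WT GMPs and 10.56, 10.52 and 10.60 in WT CMPs. Its cultured arrays were tightly grouped and well below the others, by -1.83 against GMPs and -1.74 against CMPs (SE 0.08 each, adjusted p = 1.22e-13 and 2.80e-13). Nop2, a methyltransferase of large subunit ribosomal RNA, was at 8.80, 8.28, 8.74 and 8.18 in WT Lin- + M-CSF cells, against 10.14, 10.13 and 10.16 in WT GMPs and 10.18, 10.03 and 10.03 in WT CMPs. It spread more in culture but stayed apart, by -1.64 and -1.58 (SE 0.14 each). Wdr12, the partner of Bop1 and Pes1, was at 8.47, 8.08, 8.35 and 8.26 in WT Lin- + M-CSF cells, against 9.38, 9.47 and 9.30 in WT GMPs and 9.79, 9.69 and 9.85 in WT CMPs. The groups were apart on both sides, with differences of -1.09 against GMPs and -1.49 against CMPs (SE 0.11 each). Noc2l was at 9.09, 8.90, 8.80 and 8.93 in WT Lin- + M-CSF cells, against 10.05, 9.99 and 10.07 in WT GMPs and 10.15, 10.10 and 10.11 in WT CMPs, a gap of -1.11 and -1.19 (SE 0.10 each). The differences of the other 6 genes against CMPs ranged from -0.54 for Ftsj3 to -1.06 for Grwd1.

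Of the 11 small subunit genes, 9 were lower in each comparison. Rrp9 was at 7.01, 7.12, 6.78 and 6.56 in WT Lin- + M-CSF cells, against 8.19, 8.24 and 8.21 in WT GMPs and 8.34, 8.22 and 8.35 in WT CMPs. Its arrays were apart, by -1.35 and -1.44 (SE 0.12 each). Bysl differed by -1.08 and -0.96 (SE 0.11 each), and Utp20, a large scaffold protein of the processome, by -1.07 and -0.85 (SE 0.12 each). Wdr43, of the complex that first joins the ribosomal RNA precursor, was at 10.24, 10.04, 10.15 and 9.99 in WT Lin- + M-CSF cells, against 9.35, 9.36 and 9.25 in WT GMPs and 9.76, 9.65 and 9.73 in WT CMPs. Every cultured array was above every fresh array, and the rise was 0.79 (SE 0.11, 1.73-fold, adjusted p = 4.05e-06) against GMPs and 0.39 (SE 0.11, 1.31-fold, adjusted p = 0.00582) against CMPs. Wdr75, of the same complex, was at 8.56, 8.05, 8.62 and 8.38 in WT Lin- + M-CSF cells and was not called, with differences of 0.28 and 0.07 (adjusted p = 0.0642 and 0.655). Noc4l, a partner of Nop14, had the largest adjusted p among those called lower against CMPs (-0.27, SE 0.11, adjusted p = 0.0428). It was not called without WT CMP replicate 1 or 3 or WT Lin- + M-CSF replicate 2, 3 or 4 (adjusted p from 0.0754 to 0.178), and against GMPs not without WT GMP replicate 1 or 3 or WT Lin- + M-CSF replicate 4 (adjusted p = 0.0554, 0.0583 and 0.0554). Heatr1, of the complex that holds Wdr43, was not called against CMPs without WT CMP replicate 3 or WT Lin- + M-CSF replicate 2 or 4 (adjusted p = 0.0597, 0.0560 and 0.0545). With arrays centred on their medians, Noc4l and Heatr1 were not called against CMPs (adjusted p = 0.155 and 0.0772). After cyclic loess their differences were -0.02 and -0.01 (adjusted p = 0.881 and 0.952). Noc4l was not called against CMPs with repeated quantile normalization or a fit of the compared populations alone either (adjusted p = 0.116 and 0.0668).

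Of the 12 snoRNP and nucleolar genes, 10 were lower than in WT CMPs (9 with Ddx21 turned, as in the mean of its probe sets), from -0.29 for Nhp2 to -1.44 for Mybbp1a, and Gar1 (-0.36, adjusted p = 0.101) and Nolc1 (-0.28, adjusted p = 0.0883) were not called. Against WT GMPs, 7 of 12 were lower (6 with Ddx21 turned), and Nop58 (-0.13), Gar1 (0.02), Nolc1 (-0.17), Ncl (0.20) and Gnl3 (0.13) were not called. Mybbp1a, a nucleolar protein known to repress RNA polymerase I, was at 8.72, 8.67, 8.44 and 8.39 in WT Lin- + M-CSF cells, against 9.90, 10.03 and 10.07 in WT GMPs and 9.98, 9.93 and 10.09 in WT CMPs. The gap was wide on both sides, -1.45 and -1.44 (SE 0.10 each). Dkc1 was at 8.90, 8.50, 8.84 and 8.52 in WT Lin- + M-CSF cells, against 9.60, 9.73 and 9.49 in WT GMPs and 9.99, 10.03 and 10.02 in WT CMPs. Its 3 groups did not overlap, and it differed by -0.92 and -1.32 (SE 0.12 each). Against CMPs, Nhp2 was not called without WT CMP replicate 1 or 3 or WT Lin- + M-CSF replicate 2 or 4 (adjusted p from 0.0514 to 0.0686), and Gnl3 not without WT CMP replicate 3 or WT Lin- + M-CSF replicate 4 (adjusted p = 0.0582 and 0.0750). Against GMPs, Nhp2 was not called without WT GMP replicate 3 or WT Lin- + M-CSF replicate 2 or 4 (adjusted p = 0.0726, 0.0636 and 0.0791). After cyclic loess the differences against CMPs were -0.02 for Nhp2, -0.05 for Ncl and -0.10 for Gnl3 (adjusted p = 0.863, 0.695 and 0.510). With centred arrays Nhp2 and Gnl3 were not called against CMPs (adjusted p = 0.0882 and 0.0543).

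Ddx21, Nop56, Npm1 and Rrs1 have more than 1 probe set, and those of Ddx21 went opposite ways. The probe set used was at 9.66, 9.06, 9.14 and 8.85 in WT Lin- + M-CSF cells, against 9.88, 9.86 and 9.74 in WT GMPs and 9.92, 9.98 and 9.86 in WT CMPs, a difference of -0.65 and -0.74 (SE 0.13 each, adjusted p = 0.000185 and 4.56e-05). Its other probe set was at 10.24, 9.81, 10.04 and 9.79 in WT Lin- + M-CSF cells, against 5.97, 5.92 and 6.00 in WT GMPs and 6.10, 6.17 and 6.42 in WT CMPs. That probe set was higher in culture by 4.01 and 3.74, and the mean of both was higher by 1.68 and 1.50. The direction of Ddx21 in cultured cells is therefore not settled by these arrays. The other probe sets of Nop56 (-2.59 and -0.88 against WT CMPs) and Npm1 (-1.11) had the same sign as the ones used. That of Rrs1, a large subunit gene, was 0.23 higher in culture where the one used differed by -0.76, and the mean of both was not called against WT GMPs (-0.17, adjusted p = 0.170).

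**Figure D4:**
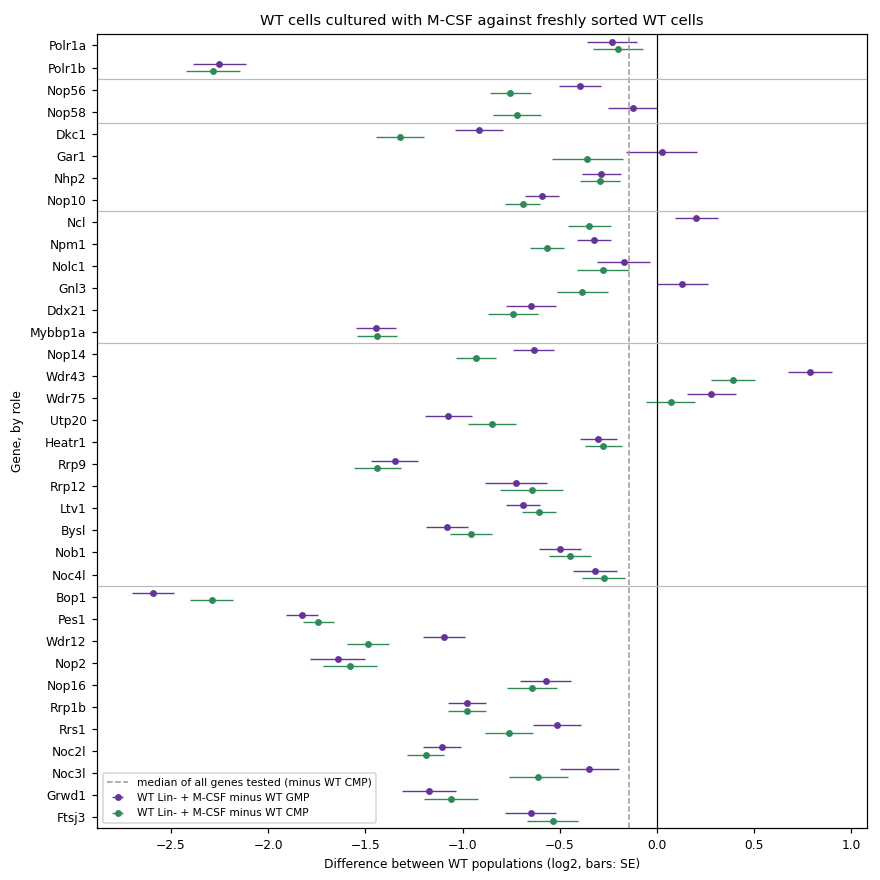
Difference of each gene between WT Lin- + M-CSF cells and WT GMPs (purple) or WT CMPs (green), in log2 units with the SE as bars, by role. The dashed line is the median of all genes tested in the comparison with WT CMPs, -0.14. Bop1 and Polr1b lie furthest left in both comparisons, and Wdr43 lies right of 0 in both.

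Of the 109 other ribosome assembly genes, 64 were lower and 10 higher in WT Lin- + M-CSF cells than in WT CMPs (58.7% and 9.17%, median -0.40), and 54 lower and 21 higher than in WT GMPs (49.5% and 19.3%, median -0.22). Exosc3, a subunit of the RNA exosome that trims ribosomal RNA ends, was higher by 1.08 than in WT CMPs (SE 0.11, adjusted p = 5.46e-08). Polr1d, a subunit shared with RNA polymerase III, was higher by 0.85 than in WT CMPs (SE 0.09, adjusted p = 5.96e-08). Nol6, of the small subunit processome, differed by -1.74 (SE 0.11, adjusted p = 5.13e-11). Myc changed by -0.88 against WT CMPs (SE 0.14, adjusted p = 1.04e-05) and by -0.60 against WT GMPs (SE 0.14, adjusted p = 0.000673), and Rptor differed by -1.51 and -2.15 (adjusted p = 7.58e-10 and 2.90e-12). Of 20 tested genes of S phase, 17 were lower and 1 higher than in WT CMPs, while of 19 genes of G2 and mitosis 7 were lower and 7 higher. Of the cell type markers, 7 of 7 of mature neutrophils and 4 of 4 tested lymphocyte genes were higher, and 9 of 10 erythroid genes lower, in WT Lin- + M-CSF cells than in WT CMPs. The list means of lymphocyte genes were 6.14 to 6.41 on WT Lin- + M-CSF arrays and 4.06 to 4.26 on WT CMP arrays. In the same order, those of monocyte genes were 9.96 to 10.18 and 9.08 to 9.17. Those of stem and multipotent progenitor genes were 6.62 to 6.81 and 7.32 to 7.58, and those of megakaryocyte genes 5.95 to 6.36 and 6.81 to 7.36. The arrays overlapped for the granulocyte progenitor list and for the eosinophil and mast cell list. The part of these shifts in the falls above was not tested.

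The comparison of freshly sorted WT cells asked how GMPs differed from CMPs. In WT GMPs 0 of the 36 genes were higher and 7 were lower (19.4%), where 6.65% of all genes were higher and 4.35% lower. The 7 were Nop56 and Nop58 of box C/D, Dkc1 of box H/ACA, the nucleolar Ncl and Gnl3, Wdr43 of small subunit assembly and Wdr12 of large subunit assembly. The GMP arrays lay wholly below the CMP arrays for 15 of the 36 genes, these 7 among them, and wholly above for 2, where 15.8% and 19.5% of all genes did. The median difference was -0.08 over the 36 genes and 0.00 over all genes. The count of calls was 4 without WT GMP replicate 2, 2 without WT GMP replicate 1 or any single WT CMP replicate, and 1 without WT GMP replicate 3, which was the lowest WT GMP array for all 7 genes and for 35.9% of all genes.

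Nop58 differed most. It was at 9.97, 10.01 and 9.71 in WT GMPs, against 10.50, 10.47 and 10.51 in WT CMPs. Its CMP arrays were close together and the GMP arrays below them, by -0.60 (SE 0.13, adjusted p = 0.00539), and it was not called without WT GMP replicate 3 (adjusted p = 0.0501). Ncl was at 10.85, 11.05 and 10.76 in WT GMPs, against 11.46, 11.51 and 11.34 in WT CMPs, a difference of -0.55 (SE 0.12, adjusted p = 0.00383) that was called without each single array. Gnl3 was at 9.43, 9.56 and 9.32 in WT GMPs, against 9.91, 9.95 and 10.00 in WT CMPs (-0.51, SE 0.14, adjusted p = 0.0220). Both genes kept a gap between the groups, and Gnl3 was not called without WT CMP replicate 1, 2 or 3 or WT GMP replicate 1 or 3 (adjusted p from 0.0507 to 0.120). Nop56 was at 10.16, 10.08 and 10.03 in WT GMPs, against 10.56, 10.38 and 10.41 in WT CMPs (-0.36, SE 0.11, adjusted p = 0.0461). Dkc1 was at 9.60, 9.73 and 9.49 in WT GMPs, against 9.99, 10.03 and 10.02 in WT CMPs (-0.41, SE 0.13, adjusted p = 0.0496). Wdr43 was at 9.35, 9.36 and 9.25 in WT GMPs, against 9.76, 9.65 and 9.73 in WT CMPs (-0.40, SE 0.12, adjusted p = 0.0379). These 3 lay nearest to the threshold, and Nop56 was not called without any single one of its 6 arrays (adjusted p from 0.0756 to 0.181), Dkc1 likewise (from 0.0517 to 0.221) and Wdr43 likewise (from 0.0655 to 0.162). Wdr12 was at 9.38, 9.47 and 9.30 in WT GMPs, against 9.79, 9.69 and 9.85 in WT CMPs (-0.39, SE 0.12, adjusted p = 0.0332), and was not called without WT CMP replicate 1, 2 or 3 or WT GMP replicate 1 or 3 (adjusted p from 0.0548 to 0.156). With arrays centred on their medians 3 of the 7 were called, and Nop56, Dkc1, Wdr43 and Wdr12 were not (adjusted p = 0.119, 0.109, 0.0727 and 0.0654). With no filter on dim genes Nop56 and Dkc1 were not called (adjusted p = 0.0565 and 0.0613).

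Of these 7 genes, 6 share a feature of gene structure that was noticed after their values were seen. By the RefSeq gene table (GRCm38.p6), 6 of the 36 genes hold a snoRNA gene within their bounds, with 5 in Nop56, 4 in Nop58, 3 each in Gnl3 and Wdr43, 2 in Ncl and 1 in Dkc1. All 6 were lower in WT GMPs, as was 1 of the 30 genes that hold none, Wdr12, while with centred arrays 3 of the 6 were called, Nop58, Ncl and Gnl3, and 0 of the 30. Of the other protein-coding genes tested that hold a snoRNA gene, 13 of 279 were lower (4.66%), near the 4.35% of all genes. Of 9 snoRNAs in these genes that had tested probe sets of their own, Snord82 in Ncl was called lower in WT GMPs (-0.70), and the differences of all 9 were below 0, from -0.19 to -0.75. Snord70 and Snord19 were dim, with means over all arrays of 3.88 and 4.14 near the filter at 3.86. A snoRNA and its host are cut from the same primary transcript, so their probe sets are not independent. Of the 109 other ribosome assembly genes, 3 were higher and 13 lower in WT GMPs (2.75% and 11.9%), among them Rrp7a, of the small subunit processome, at 0.92 and Esf1, a pre-ribosomal RNA processing factor, at -0.80. Myc differed by -0.28 there (adjusted p = 0.261) and Rptor by 0.65 (adjusted p = 0.00185).

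The same comparison in CreER-Raptor cells was added after these values were seen. In CreER-Raptor GMPs 10 of the 36 genes were lower than in CreER-Raptor CMPs (27.8%) and 1 higher, where 15.4% of all genes were lower and 12.5% higher, and the median was -0.16, against 0.04 for all genes. The GMP arrays lay wholly below the CMP arrays for 14 genes and wholly above for 5, where 19.8% and 22.4% of all genes did. All 6 genes that hold a snoRNA gene were among the 10, though Nop56 was not called with the mean of its probe sets (-0.30, adjusted p = 0.114). Of the 30 genes that hold none, 4 were lower (13.3%). Of the other protein-coding genes tested that hold a snoRNA gene, 53 of 279 were lower (19%), beside the 15.4% of all genes. Nop58 was at 10.00, 9.71 and 10.30 in CreER-Raptor GMPs, against 10.69, 10.73 and 10.65 in CreER-Raptor CMPs (-0.69, SE 0.13, adjusted p = 0.000453). Dkc1 was at 9.52, 9.24 and 9.73 in CreER-Raptor GMPs, against 10.20, 10.17 and 9.97 in CreER-Raptor CMPs (-0.61, SE 0.13, adjusted p = 0.00126). Gnl3 was at 9.77, 9.52 and 10.00 in CreER-Raptor GMPs, against 10.40, 10.34 and 10.38 in CreER-Raptor CMPs (-0.61, SE 0.14, adjusted p = 0.00242). In these 3 the groups were apart and replicate 2 was the lowest GMP array. Ncl was at 11.11, 10.82 and 11.34 in CreER-Raptor GMPs, against 11.56, 11.56 and 11.47 in CreER-Raptor CMPs (-0.44, SE 0.12). Nop56 was at 10.24, 10.20 and 10.30 in CreER-Raptor GMPs, against 10.73, 10.76 and 10.53 in CreER-Raptor CMPs (-0.43, SE 0.11). Wdr43 was at 9.52, 9.35 and 9.79 in CreER-Raptor GMPs, against 10.03, 9.95 and 9.96 in CreER-Raptor CMPs (-0.43, SE 0.12). These too did not overlap. Wdr12 was at 9.50, 9.36 and 9.74 in CreER-Raptor GMPs, against 10.02, 10.06 and 9.99 in CreER-Raptor CMPs (-0.49, SE 0.12), and Nop14, whose values stand above, differed by -0.44 (SE 0.11). The other 2 were Gar1 (-0.65) and Noc3l (-0.50), and the arrays of Noc3l overlapped.

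Bop1 was the gene that rose, at 9.96, 9.86 and 9.63 in CreER-Raptor GMPs, against 9.47, 9.45 and 9.20 in CreER-Raptor CMPs (0.44, SE 0.12, adjusted p = 0.00604), and its difference in WT cells was 0.30 (adjusted p = 0.107). Gar1 was not called without CreER-Raptor CMP replicate 2 or CreER-Raptor GMP replicate 2 (adjusted p = 0.0738 and 0.131), Noc3l not without CreER-Raptor CMP replicate 1 or 2 or CreER-Raptor GMP replicate 2 (adjusted p = 0.109, 0.154 and 0.0899), and Ncl and Wdr43 not without CreER-Raptor GMP replicate 2 (adjusted p = 0.0677 and 0.0834). That array was the lowest of its group for all 7 genes that were lower in WT GMPs, and for 35.7% of all genes. Erythroid markers were lower in GMPs, 9 of 10 in WT and 10 of 10 in CreER-Raptor cells, and their part in these differences was not tested.

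**Figure D5:**
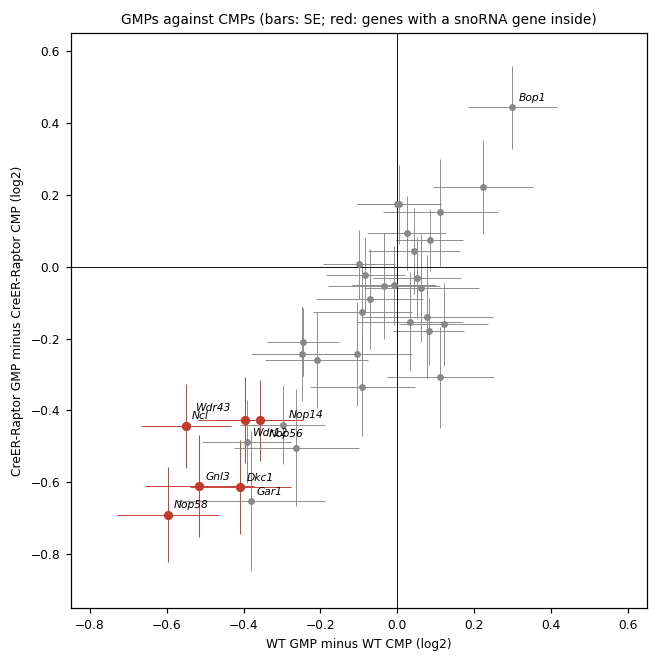
Difference between GMPs and CMPs for each of the 36 genes, in WT cells (horizontal axis) and in CreER-Raptor cells (vertical axis), in log2 units with SE bars. The 6 genes that hold a snoRNA gene (red) lie at the lower left, from -0.60 to -0.36 in WT cells and from -0.69 to -0.43 in CreER-Raptor cells, and Bop1 lies at the upper right. Wdr12 (-0.39 and -0.49) and Gar1 (-0.38 and -0.65), which hold none, lie within the same ranges.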

How the data were processed

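RNA of 20 samples, amplified from nanogram amounts per the labels' protocols, was measured on single-channel gene arrays. The deposited values are log2 signals per probe set, normalized together by RMA, and Partek 6.6 and limma are named in the submitters' processing notes. Their range was 1.77 to 13.16 and array medians were 4.76 to 4.91. Of 41345 probe sets, the annotation gives 23521 a single symbol, 1814 several and 16010 none. Genes with a mean under the 25th percentile (log2 3.86) were left out, and limma 3.58.1 (R 4.3.3) was fitted to 6 group means with 14 residual degrees of freedom, with Benjamini-Hochberg adjustment over 16638 genes. The code was tested on simulated data. Python 3.11.15, pandas 2.3.3 and matplotlib 3.10.9 made the sequence searches and figures.

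Groups came from the labels. The labels do not state that the replicates of a group are different mice, so a p-value reflects only how much these arrays vary, and that variation may be technical. Within groups, arrays correlated at 0.982 or above, and no columns were identical. The members, lists and comparisons were chosen with earlier results of these data known, and the CreER-Raptor GMP comparison was added after seeing the data. Every gene of the 38 was counted. Array values are given for called genes (up to 8 of smallest p per direction), Polr1a, Polr1b and the largest genotype differences, and for other genes of assembly and the Myc network up to 4 called genes per direction. Genes singled out beyond this were chosen after their values were seen. Alternatives were the filter, probe set averaging, 3 scalings, array weights, trended eBayes, a fit of the compared populations alone, a replicate block and leaving out each array.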

Additional observations from a re-analysis of the deposited data

Results flagged for a closer look

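In 4 of 72 sets of arrays tested, 1 array stood apart from the other 3 of its group by a gap that took up most of the group's range, and all 4 were CreER-Raptor Lin- + M-CSF cells. Such gaps arise by chance in about 1 in 20 groups, which is close to the share seen. Nop58 was at 9.54 in replicate 3, with the others at 9.82 to 9.88, and Ncl was at 11.30 in the same array, with the others at 11.18 to 11.19. Bysl was at 6.78 in replicate 1, with the others at 6.99 to 7.01. Nob1 was at 8.35 in replicate 4, with the others at 8.57 to 8.58, and its rise over WT was called with and without that array.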

How the results depend on the processing

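Array weights gave 13 genes between genotypes in CMPs (4 in the reported fit), 15 in GMPs (4) and 2 in Lin- + M-CSF cells (4), 11 for WT GMPs against WT CMPs (7), 18 for CreER-Raptor GMPs against CMPs (11), and 1 and 2 for the genotype effect in Lin- + M-CSF cells against that in CMPs and GMPs (0 each). Of all genes tested, array weights called 3048 between genotypes in CMPs (1905 in the reported fit) and 5328 in GMPs (1980). In GMPs the weights were 4.70, 0.82 and 0.52 for CreER-Raptor replicates 1 to 3. They were 2.84, 1.26 and 1.03 for WT replicates 1 to 3, so replicate 1 counted most in both genotypes. Trended and robust eBayes gave 7 in CMPs and 9 in GMPs. In GMPs a filter at the 50th percentile gave 8, repeated quantile normalization 8, cyclic loess 9, arrays centred on their medians 2 and a fit of the GMP arrays alone 7. Centred arrays gave 2 in Lin- + M-CSF cells and 3 for WT GMPs against WT CMPs, and a fit of the Lin- + M-CSF arrays alone gave 1. Cyclic loess moved the median difference of WT Lin- + M-CSF cells to -0.43 against WT CMPs and -0.34 against WT GMPs. Averaging the probe sets turned Ddx21 to 1.50 and 1.68. The cause of these shifts was not tested.

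Without single arrays the counts were 1 to 7 (CMPs), 1 to 3 (GMPs) and 1 to 3 (Lin- + M-CSF cells) between genotypes, 1 to 4 for WT GMPs against WT CMPs, 28 to 33 and 26 to 29 for WT Lin- + M-CSF cells against WT CMPs and WT GMPs, 7 to 12 for CreER-Raptor GMPs against CMPs, and 0, 0 to 2 and 0 for the differences between genotype effects. The medians were 0.17 to 0.25, 0.12 to 0.20 and -0.02 to 0.08 between genotypes, -0.10 to -0.04 for WT GMPs against WT CMPs, -0.78 to -0.65 and -0.67 to -0.56 for the cultured cells, -0.19 to -0.12 for CreER-Raptor GMPs, and -0.09 to -0.01, -0.24 to -0.11 and -0.16 to -0.04 for the differences between effects. Of the results for single genes between genotypes, 200 kept their direction and side of the threshold under an alternative, 56 missed the threshold, 10 newly passed it and 0 reversed.

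Arrays of 1 replicate number are not stated to be paired, and the correlations of their deviations ran from -0.344 to 0.185 over 22 pairs, 4 of them over 0.1. A replicate block gave 4, 6 and 3 genes between genotypes, 4 for WT GMPs against WT CMPs (Nop56, Dkc1 and Wdr43 not called), 33 and 29 for the cultured cells, and 11 for CreER-Raptor GMPs against CMPs. With 3 or 4 arrays a group, their number limits the precision.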

Other observations

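Of 11 genes of the Myc network, which holds Myc, its partner Max and the antagonists that compete for Max, 5 were higher and 2 lower in WT Lin- + M-CSF cells than in WT CMPs, where 19.6% and 36.0% of all genes were. Against WT GMPs 3 were higher and 2 lower, where 20.3% and 36.1% of all genes were. Mxi1, which encodes a protein that binds Max in place of Myc and represses the same sites, was at 11.21, 11.24, 11.45 and 10.93 in WT Lin- + M-CSF cells, against 6.25, 6.02 and 5.72 in WT GMPs and 5.78, 5.66 and 5.60 in WT CMPs. It was higher by 5.21 and 5.53 (SE 0.12 each, adjusted p = 2.87e-18 and 1.42e-18). Max, the shared partner, was higher by 1.14 and 1.18 (SE 0.11 each), and Mxd1, another antagonist, by 1.02 and 1.05 (SE 0.22 each). Between genotypes, Mxd3, of the same family, differed by -0.60 in CreER-Raptor GMPs and -0.49 in CreER-Raptor Lin- + M-CSF cells (adjusted p = 0.000342 and 0.000738).

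Of 9 tested snoRNAs held in the ribosome biogenesis genes, 5 were lower and 2 higher in WT Lin- + M-CSF cells than in WT CMPs. Of all genes, 36.0% were lower and 19.6% higher. Snord92 differed by -2.94 while its host Wdr43 was 0.39 higher. Snord53, in the same host, differed by -0.48. Snord82, in Ncl, was higher by 0.83 and Snord19, in Gnl3, by 0.78. Snord19 and Snord70, which was among those lower, were dim, with means over all arrays of 4.14 and 3.88 near the filter at 3.86.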
